A study of Mus musculus with 6 samples.

Results

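Fc receptors are the proteins through which cells bind the constant (Fc) part of antibodies. Their genes were followed in RNA sequencing of articular cartilage from wild-type (WT) mice, with 3 libraries at the age of 2 months and 3 at 18 months. The 8 genes, chosen by name from the 33971 in the deposited table, were Fcgr1, Fcgr2b, Fcgr3, Fcgr4, Fcer1a, Fcer1g, Ms4a2 and Fcgrt, and all 8 were found and passed the filter on low counts. The mice of both ages carried no engineered allele and received no agent named in the labels, and the study's methods describe the animals as male. The sex-linked transcripts of the 2-month libraries, given below, do not match that description. Nothing in the labels says whether a library came from 1 animal or from several, and the study's methods state in general that samples were independent. P-values measure the spread between these samples.

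Fc gamma receptors bind IgG. Fcgr1, Fcgr3 and Fcgr4 encode activating receptors that hand their signal to the FcR gamma chain, encoded by Fcer1g, whose intracellular tail holds an immunoreceptor tyrosine-based activation motif (ITAM) that is phosphorylated by Src family kinases and then recruits Syk. Fcgr2b encodes the inhibitory receptor, which carries an inhibitory motif (ITIM) in its own tail and recruits the phosphatase SHIP. Fcer1a and Ms4a2 encode the alpha and beta chains of the high-affinity IgE receptor of mast cells and basophils, which also uses the gamma chain. Fcgrt encodes the heavy chain of the neonatal Fc receptor, a protein related to MHC class I that pairs with beta-2-microglobulin, binds IgG and albumin at the acidic pH of endosomes and returns them to the blood. Macrophages, neutrophils, mast cells, basophils, NK cells and B lymphocytes are the best known sites of the first 7 genes, whereas Fcgrt is made by many cell types.

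The libraries held between 48171507 and 59085179 counts, and the age groups differed in more than age. The summed FPKM (fragments scaled by transcript length and library size) of 16 chondrocyte markers lay between 6662 and 9342 at 2 months and between 75.6 and 233 at 18 months, and all 16 were called lower. Epyc was at 0 in all 3 libraries of 18 months, and Matn1 and Matn3 were at 0 in replicate 3. The 7 erythroid markers summed to 288, 7366 and 788 FPKM in 2-month replicates 1, 2 and 3 and to at least 29856 at 18 months. Xist, the transcript of the inactive X chromosome, had 88239 to 102417 counts at 2 months and 11 to 30 at 18 months. The Y-linked genes Ddx3y, Eif2s3y, Kdm5d and Uty had at most 39 counts at 2 months and at least 1189 at 18 months, and of these 5 genes 4 were called higher and 1 lower. The 2-month libraries thus showed the transcript pattern of female mice and the 18-month libraries that of male mice, whereas the study's methods describe males. Age and the sex pattern of the libraries therefore cannot be told apart. In bulk tissue, more cells of a type and more RNA per cell cannot be told apart either.

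In the GRCm38 mouse genome, 5 of the 8 genes lie on chromosome 1, in the order Fcgr2b (chr1:170958617-170976547), Fcgr4 (chr1:171018920-171029761), Fcgr3 (chr1:171051174-171064935), Fcer1g (chr1:171229572-171234365) and Fcer1a (chr1:173221284-173227214). Fcgr1 lies at chr3:96282909-96293969, Fcgrt at chr7:45092990-45103851 and Ms4a2 at chr19:11615523-11623719. The table's coordinates of all 8 were those of the GENCODE M21 annotation. Coding exons hold the known signalling motifs of the family, which are shown because the ratios further on compare their carriers. The lines below print the coding strand of the gamma chain ITAM (chr1:171229889-171230072, residues 65 to 79 of 86, joined over exons 4 and 5), the beta chain ITAM (chr19:11617512-11617553, residues 173 to 186 of 198, exon 7) and the ITIM of Fcgr2b (chr1:170961071-170961088, residues 317 to 322 of 340, exon 8). Capitals mark the codons of the tyrosine and of the leucine that follows it in each motif.
Fcer1g ITAM: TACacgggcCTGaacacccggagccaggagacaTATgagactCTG
Ms4a2 ITAM: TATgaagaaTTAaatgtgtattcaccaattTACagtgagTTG
Fcgr2b ITIM: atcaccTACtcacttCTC
No ITAM was found in the reference coding sequence of the other 6 members, Fcgr1, Fcgr3 and Fcgr4 among them. The short ITIM pattern also matched 3 times in Fcgr1 and 1 time each in Fcgr4, Fcer1g, Ms4a2 and Fcgrt, so a match alone does not sort the members, and the match of Fcgr2b is shown because it is the known ITIM.

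Fcgr2b and Fcgr3 are close relatives outside their tails. Their coding sequences were 86.7% identical over 782 aligned bases, and the longest run they shared was 129 bases, shorter than the reads of 150 bases. No stretch of 150 bases in the transcripts of any of the 8 genes occurred in a transcript of another gene of the annotation. Fcgr2b overlaps the antisense gene Gm38204 and Fcgrt the antisense gene Gm45669. The libraries were strand-specific, and whether strand was used in counting is not given in the sources used here, so reads of these 2 genes and of their antisense partners may be mixed. Fcgr3 and Fcgr4 each hold a small RNA gene on their own strand, Mir6546 and Gm26110.

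Promoters of the 8 genes were read from RefSeq (GRCm38.p6), from 250 bases before to 50 after the start of transcription, with the first of 2 listed starts taken for Fcgr3. The letters GAGGAA, read on the other strand as TTCCTC, the core bound by the myeloid factor PU.1, were found in 4 of the 8 windows, those of Fcgr1, Fcgr3, Fcgr4 and Fcer1a, and in 28.3% of all 32851 promoters. The letters AGATAA, read on the other strand as TTATCT and bound by GATA factors, were found in Fcer1a and, at 3 places, in Ms4a2, and in 11.2% of all promoters. The 2 motifs share no overlapping match in these windows, and both strands were searched. The 100 bases before the start are shown 5′ to 3′ for the members with a match and for Fcgrt, which moved the other way with age, with matches to either motif in capitals. The lines give Fcgr1 (chr3:96293970-96294069, minus strand), Fcgr3 (chr1:171059404-171059503, minus strand), Fcgr4 (chr1:171018826-171018925, plus strand), Fcer1a (chr1:173227230-173227329, minus strand), Ms4a2 (chr19:11623720-11623819, minus strand) and Fcgrt (chr7:45103823-45103922, minus strand).
Fcgr1: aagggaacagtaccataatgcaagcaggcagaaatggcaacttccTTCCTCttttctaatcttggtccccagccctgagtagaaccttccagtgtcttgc
Fcgr3: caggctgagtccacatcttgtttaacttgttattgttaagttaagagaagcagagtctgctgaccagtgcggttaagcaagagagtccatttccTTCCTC
Fcgr4: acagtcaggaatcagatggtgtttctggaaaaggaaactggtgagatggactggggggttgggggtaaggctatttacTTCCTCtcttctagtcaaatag
Fcer1a: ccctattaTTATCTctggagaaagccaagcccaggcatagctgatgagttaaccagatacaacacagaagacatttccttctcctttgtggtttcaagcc
Ms4a2: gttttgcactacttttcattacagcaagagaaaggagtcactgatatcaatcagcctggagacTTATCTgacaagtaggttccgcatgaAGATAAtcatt
Fcgrt: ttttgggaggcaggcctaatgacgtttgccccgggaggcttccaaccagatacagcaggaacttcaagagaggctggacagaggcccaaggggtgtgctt
The match lay 55 bases before the start in Fcgr1, 6 in Fcgr3 and 22 in Fcgr4, as counted from its first base. The GAGGAA match of Fcer1a, at 216 bases before the start, and a further AGATAA match of Ms4a2, at 224 bases, lie outside the stretch shown. The windows of Fcgr2b, Fcer1g and Fcgrt held neither motif. A match of 6 letters is a description of the sequence and not a binding site, and a window without one says nothing of the factor.

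In aged cartilage 7 of the 8 genes stood higher in every 18-month library than in every 2-month library, and Fcgrt alone stood lower in every one. With all 6 libraries, 5 genes were called higher (Fcgr2b, Fcgr3, Fcgr4, Fcer1a and Fcer1g) and 1 lower (Fcgrt), whereas Fcgr1 and Ms4a2 did not pass the test. The median log2 fold change of the 8 was 4.16, and that of all genes tested was −0.02. A gene was called at an adjusted p below 0.05 and a log2 fold change above 1 or below −1, fold changes being those of 18 against 2 months. Of the 20397 genes tested, 36.3% were called, 14.9% higher and 21.3% lower. The ages did not overlap in 68.6% of them, so the absence of overlap in all 8 members is to be read against that share.

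Among the activating Fc gamma receptors, Fcgr3 was the most abundant. Fcgr3 encodes the low-affinity receptor FcγRIII, and its FPKM was 0.291, 15.2 and 2.26 in 2-month replicates 1, 2 and 3 and 115, 112 and 113 in the 18-month replicates. The 18-month libraries lay within a narrow range, and among the young libraries replicate 2 was the highest. Fcgr4 encodes FcγRIV, a mouse receptor for IgG2a, IgG2c and IgG2b, and its FPKM was 0.0545, 2.34 and 0.0267 at 2 months and 24.7, 28.5 and 26.8 at 18 months. The values of replicates 1 and 3 rested on 4 and 2 counts, against 172 in replicate 2 and 2085 to 2253 at 18 months. Fcgr1 encodes the high-affinity receptor FcγRI, and its FPKM was 0, 1.33 and 0.0421 at 2 months and 5.74, 6.12 and 7.12 at 18 months. The 0 of Fcgr1 in 2-month replicate 1 allows up to 3 counts, or 0.0621 CPM, a count scaled by the library total, and replicate 2 had 202 counts.

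The inhibitory receptor gene was also called higher. Fcgr2b had an FPKM of 0.0617, 2.97 and 0.538 at 2 months and 19.5, 20.3 and 21.0 at 18 months. Its counts were 22, 1008 and 177 in the young libraries and 7409 to 7772 in the aged ones. Of the FPKM summed over the 4 Fcgr genes, Fcgr3 made up between 67.0% and 78.8% in every library of either age. Fcgr2b made up 15.2%, 13.6% and 18.8% in the 2-month libraries and between 11.8% and 12.5% in the 18-month ones. Fcgr4 made up 13.4%, 10.7% and 0.930% at 2 months, and 15.0% to 17.1% at 18 months. The order of the 4 genes at 18 months was thus Fcgr3, Fcgr4, Fcgr2b and Fcgr1, with ranges that did not overlap, while the sum was 0.407, 21.8 and 2.87 FPKM at 2 months and between 165 and 168 FPKM at 18 months.

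The shared gamma chain was the most abundant of the 8 genes in aged cartilage. Fcer1g had an FPKM of 1.25, 33.4 and 3.54 at 2 months and 196, 189 and 182 at 18 months. Replicate 2 again was the highest of the young libraries, and it lay below every aged library. Fcer1a, the IgE-binding alpha chain, had an FPKM of 0, 0.399 and 0.0616 at 2 months, from 0, 24 and 4 counts, and 16.0, 22.3 and 18.6 at 18 months, from 1076 to 1399 counts. Ms4a2, the beta chain, which amplifies the signal of the receptor, had an FPKM of 0, 0.965 and 0.0599 at 2 months and 6.39, 8.94 and 8.74 at 18 months. Its counts were 0, 161 and 10 in the young libraries and 1211 to 1584 in the aged ones. The alpha chain thus stood below the beta chain in the young library with the most reads of both and above it in every aged library. The ratio of Fcer1a to Ms4a2 FPKM was 0.414 in 2-month replicate 2 and 1.03 in replicate 3, and 2.51, 2.49 and 2.13 at 18 months. That ratio was chosen after its values had been seen and is given without a test.

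Fcgrt moved against the other 7 genes. Its FPKM was 66.1, 51.1 and 61.0 at 2 months and 29.1, 24.7 and 23.9 at 18 months, so that the aged mean was 0.436 of the young mean. The groups did not overlap, and 2-month replicate 2, which was the highest young library for the other 7 genes, was the lowest for Fcgrt. Fcgrt was the most abundant of the 8 genes at 2 months, at 59.4 ± 7.62 FPKM (SD, n = 3), and its range did not overlap that of the next gene, Fcer1g (12.7 ± 17.9, SD, n = 3). At 18 months it ranked after Fcer1g, Fcgr3 and Fcgr4, at 25.9 ± 2.78 FPKM (SD, n = 3). Fcgrt and Fcgr4 (26.7 ± 1.92, SD, n = 3) had overlapping ranges there, as had Fcgr2b and Fcer1a, and Ms4a2 and Fcgr1. At 2 months the ranges of neighbours in the order below Fcgrt all overlapped.

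**Figure D1:**
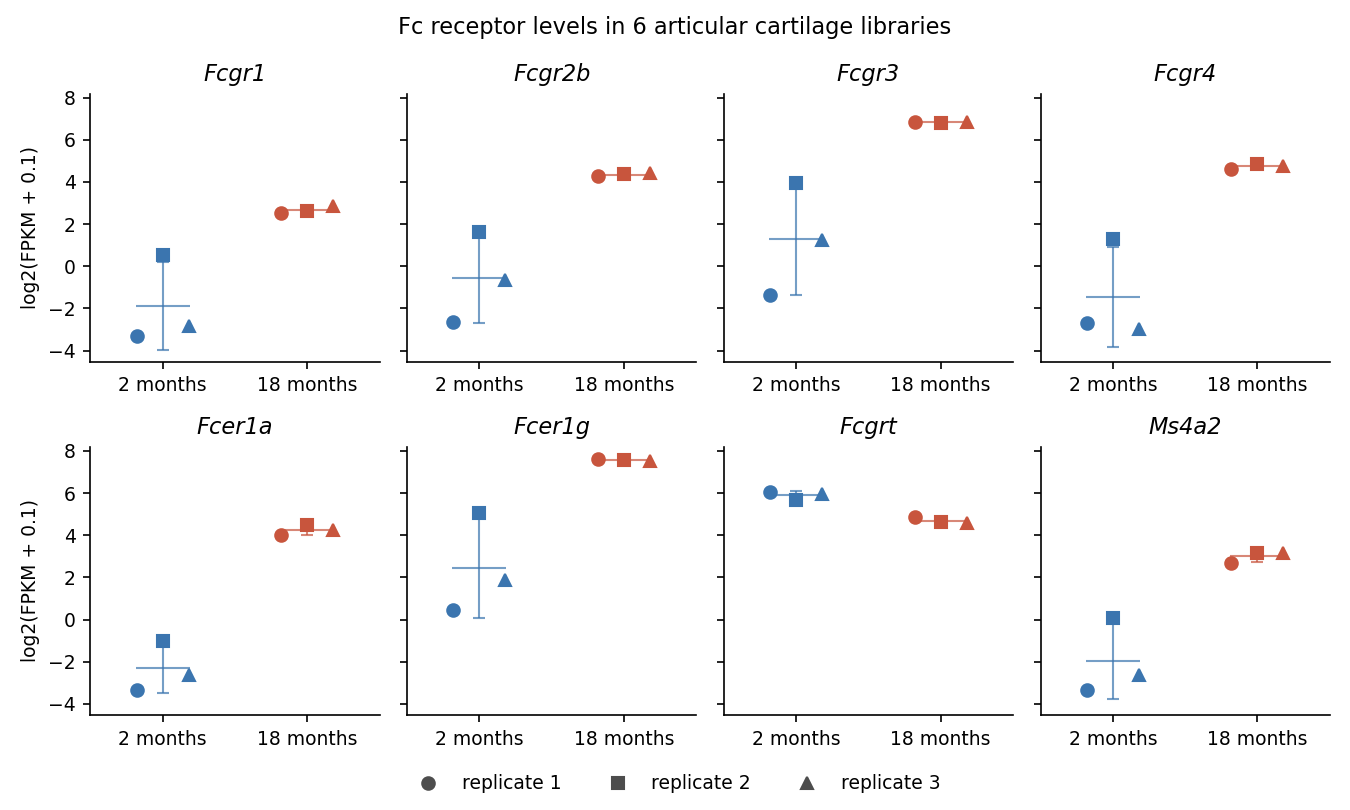
Levels of the 8 Fc receptor genes as log2(FPKM + 0.1) in each library of 2 months (blue) and 18 months (red), with the mean and SD of each age (n = 3). In 7 panels 2-month replicate 2 (square) is the highest young library and lies below the aged libraries, which sit close together, and in the Fcgrt panel the aged libraries lie below the young ones.

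The changes differed in size, and that of Fcer1a was the largest. By the quasi-likelihood test of edgeR, adjusted by the Benjamini-Hochberg method over every gene tested, the log2 fold change of Fcer1a was 6.82 (adjusted p = 0.0058, standard error 1.17), against 5.04 (0.039, 1.55) for Fcgr4 and 4.25 (0.039, 1.31) for Fcgr3. It was 4.07 (standard error 1.23, adjusted p = 0.036) for Fcgr2b and 3.88 (1.20, 0.039) for Fcer1g in the same edgeR test. Fcgr1, at 3.78 (1.66, 0.10), and Ms4a2, at 4.53 (1.58, 0.056), did not pass it. Fcgrt stood at −1.29, with a standard error of 0.16 and an edgeR adjusted p of 0.0025. Fcgr1, Fcer1a and Ms4a2 have a young library at 0, and most of their young counts (202, 24 and 161) came from 2-month replicate 2.

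Leaving out 1 library could change the call of every gene but Fcer1a and Fcgrt, which passed in each of the 6 such fits. Each of these fits also held fewer libraries. Fcgr2b, Fcgr3 and Fcer1g lost the call without 2-month replicate 3 (edgeR adjusted p = 0.11, 0.12 and 0.10) and without any 18-month library (0.076 to 0.083 for Fcgr2b, 0.082 to 0.086 for Fcgr3, 0.083 to 0.087 for Fcer1g). Fcgr4 lost it in those 4 fits and without 2-month replicate 1 (edgeR adjusted p = 0.061 to 0.093). The log2 fold changes of Fcgr2b, Fcgr3 and Fcer1g were 4.07, 4.25 and 3.88 with all libraries. Without 18-month replicate 1, 2 or 3 they were 4.04 to 4.12, 4.25 to 4.26 and 3.88 to 3.91. Without 2-month replicate 3 they were 3.75, 3.88 and 3.45. Ms4a2 gained the call without 2-month replicate 1 (edgeR adjusted p = 0.043). Without 2-month replicate 2, all 8 genes were called in edgeR, 7 higher and 1 lower, where 23.3% of 21489 genes tested were called higher. The log2 fold changes were then 9.13 for Fcgr4, 8.87 for Fcer1a, 7.88 for Fcgr1, 7.85 for Ms4a2, 6.35 for Fcgr3, 6.17 for Fcer1g and 5.94 for Fcgr2b. For Fcgrt the value without that library was −1.40. The direction of each of the 8 genes was the same in all of these fits.

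**Figure D2:**
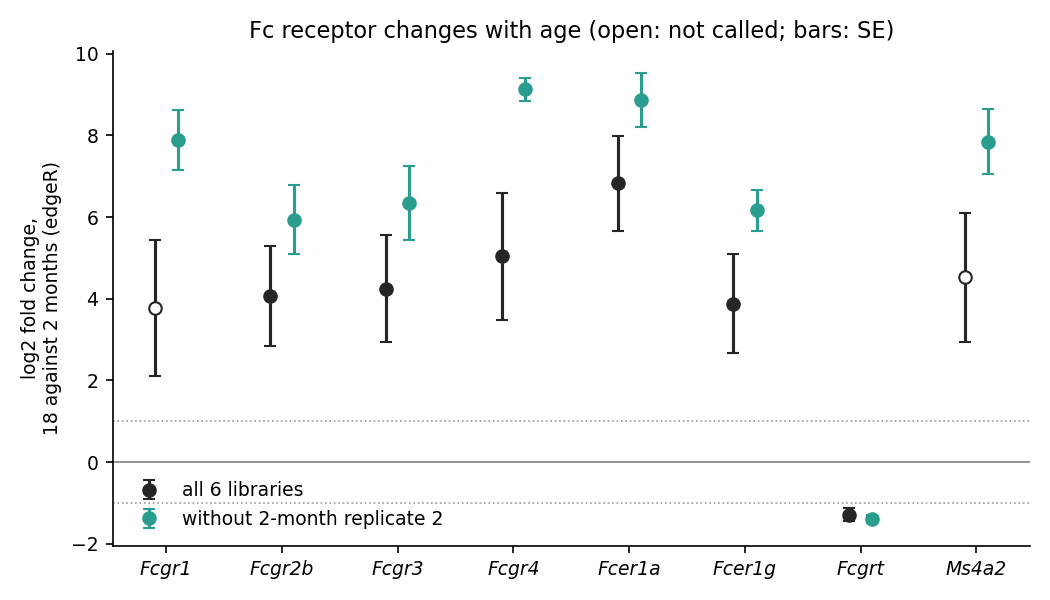
The log2 fold change of each Fc receptor gene at 18 against 2 months in edgeR, with its standard error, from all 6 libraries (black) and without 2-month replicate 2 (green). Open symbols are genes that were not called, the dotted lines are the limits of the call at 1 and −1, and leaving out the library raised the 7 positive values and left Fcgrt near −1.40.

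Replicate 2 of the young group was the young library nearest to the aged level for the 7 genes other than Fcgrt. Its FPKM was 21.1% of the 18-month mean for Fcgr1, 17.6% for Fcer1g, 14.6% for Fcgr2b, 13.4% for Fcgr3, 12.0% for Ms4a2, 8.76% for Fcgr4 and 2.11% for Fcer1a. In young replicates 1 and 3 none of these 7 genes exceeded 2.65% of the 18-month mean. For Fcgrt the 3 young libraries stood at 255%, 197% and 236% of it. Markers of other cell types moved with the receptors. The 14 monocyte and macrophage markers summed to 18.1, 190 and 50.7 FPKM in young replicates 1, 2 and 3, and to between 618 and 626 FPKM at 18 months. Of these, 3 were called higher with all libraries and 12 without 2-month replicate 2, none lower, and only Adgre1 in replicate 1 was at 0. C1qb, a chain of the complement component C1q, had a log2 fold change of 3.43, and Ly6c2, a surface protein of inflammatory monocytes, one of 4.50 that did not pass the test (adjusted p = 0.092, edgeR).

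The 14 neutrophil markers summed to 6.91, 3672 and 57.5 FPKM at 2 months and to between 42292 and 47171 FPKM at 18 months. None of the 14 was called with all libraries and all 14 were called higher without 2-month replicate 2. Ctsg and Ly6g were at 0 in young replicate 1, and Elane and Cxcr2 in young replicate 3. The 4 eosinophil markers, 1 called higher, summed to 0.183, 90.3 and 2.09 FPKM at 2 months and to at least 1351 FPKM at 18 months. Siglecf was at 0 in young replicates 1 and 3, and Ccr3 in replicate 1. The 7 NK cell markers, 3 called higher, summed to at most 9.97 FPKM at 2 months and at least 89.2 FPKM at 18 months, of which Nkg7, not called (log2 fold change 5.18, adjusted p = 0.055, edgeR), made up 82.9 to 96.3 FPKM, with Klra8 and Eomes at 0 in young replicates 1 and 3 and Gzma at 0 in replicate 3. Without 2-month replicate 2 all 4 eosinophil and all 7 NK cell markers were called higher. The part of any of these cell types in the receptor levels was not tested.

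Markers of basophils and mast cells, the cells that carry the IgE receptor, did not all move alike. The basophil proteases Prss34 and Mcpt8 had at most 560 and 257 counts at 2 months, both in replicate 2, and at least 8475 and 4111 at 18 months. Mcpt8 was at 0 in young replicates 1 and 3, and Prss34 was at 0 in replicate 1. The 4 basophil markers summed to 0.644, 12.7 and 0.865 FPKM at 2 months and to between 166 and 190 FPKM at 18 months, and 1 of them, Cd200r3, was called higher (log2 fold change 2.59), whereas Il4 was at 0.23 (adjusted p = 0.68, edgeR). Without 2-month replicate 2, 3 of the 4 were called higher. The 7 mast cell markers summed to between 0.154 and 6.57 FPKM at 2 months and between 50.9 and 53.9 FPKM at 18 months. Of the 4 that were tested, Cpa3 and Kit, which blood cell progenitors also express, were called higher, whereas Hdc was not called at 4.48 and Cma1, the chymase of connective tissue mast cells, at 0.23. Mcpt4, Tpsb2 and Tpsab1, the further mast cell proteases, had too few counts to be tested. Mcpt4 had 0, 0 and 53 counts at 2 months and 7, 0 and 4 at 18 months. Tpsb2 was at 0 in every library but young replicate 3, which had 7 counts, and Tpsab1 was at 0 in every library but 18-month replicate 3, which had 3. The last 3 genes are named because of their low values. The part of basophils or mast cells in the levels of Fcer1a and Ms4a2 was not tested.

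The remaining marker lists varied in their order across the libraries. The 6 osteoclast markers summed to 36.3, 1984 and 386 FPKM at 2 months and to between 706 and 868 FPKM at 18 months, so that young replicate 2 was the highest library, and 0 of 6 were called. The sums of the 11 B lymphocyte markers (1 called higher) and of the 8 endothelial markers (2 called higher) in that library were likewise 139% and 108% of the 18-month mean, and without it 10 and 7 of them were called higher. The 6 megakaryocyte and platelet markers, 5 called higher, stood at 3.57% of it in that library, and 6 were called higher without it. Of the 5 plasma cell markers 2 were called higher, and their young sums of 70.1 to 79.0 FPKM were mostly Xbp1 (50.4 to 73.4 FPKM), which many cell types express. Jchain, the joining chain of secreted antibody, had 0.0919, 2.40 and 0.157 FPKM at 2 months and 116 to 146 at 18 months, and Tnfrsf17 was at 0 in all 3 young libraries. Of the 7 erythroid markers 3 were called higher with all libraries and 7 without 2-month replicate 2.

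**Figure D3:**
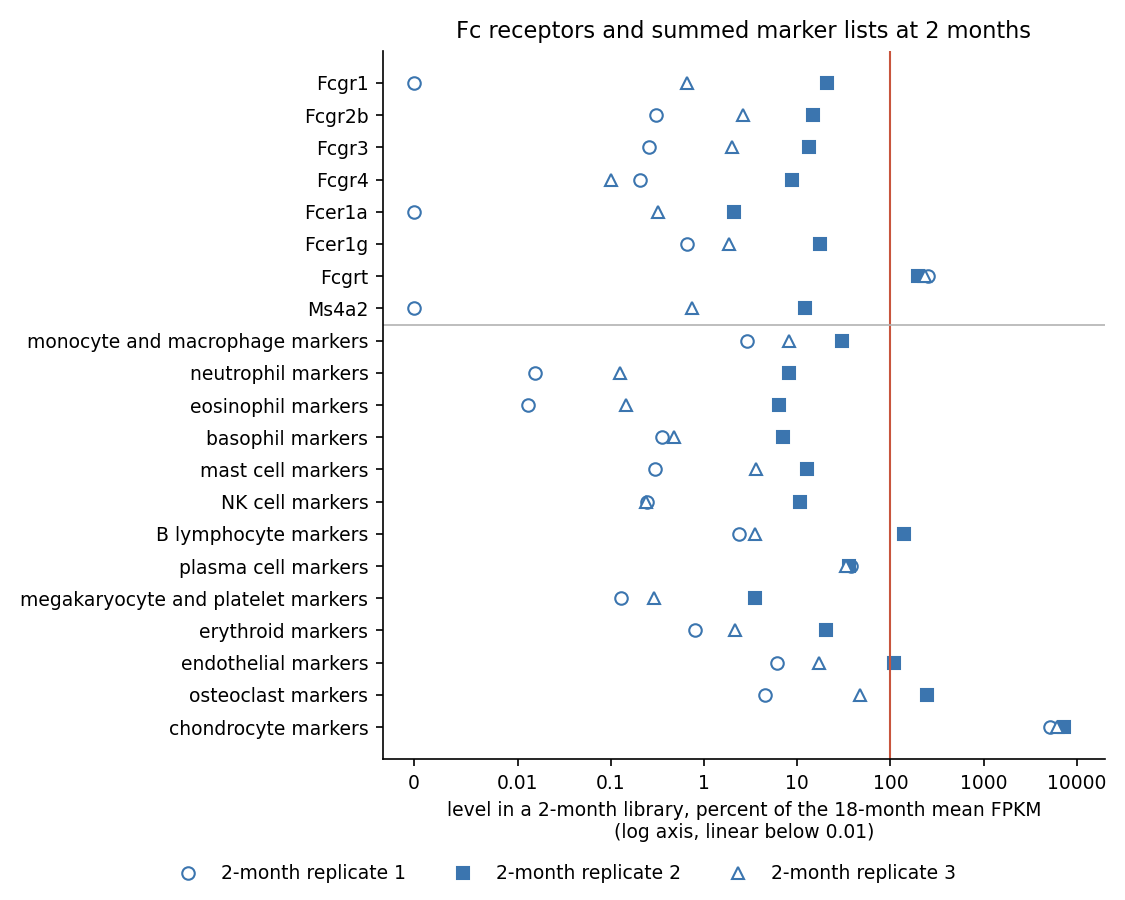
Level of each Fc receptor gene (above the grey line) and summed level of each marker list (below it) in the 3 libraries of 2 months, as a percent of the mean FPKM at 18 months on a log axis that is linear below 0.01, with the red line at 100. Replicate 2 (filled squares) lies between 2.11% and 21.1% for the 7 genes other than Fcgrt, whereas all 3 young libraries lie above 100 for Fcgrt and for the chondrocyte markers.

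Within each library 4 ratios were taken, each as the log2 ratio of FPKM + 0.1. Plain ratios are free of library scaling, whereas the pseudocount pulls those of low levels towards 0 on the log2 scale. For 3 against 3 libraries the smallest p of an exact permutation test is 0.1. The activating receptors Fcgr1, Fcgr3 and Fcgr4 together stood at 5.59, 6.35 and 4.32 times the FPKM of the inhibitory Fcgr2b in the young libraries, and at 7.46, 7.20 and 7.00 times in the aged libraries. On the log2 scale this ratio averaged 2.00 ± 0.59 (SD, n = 3) in the young group, and the aged group averaged 2.85 ± 0.05 (SD, n = 3), higher by 0.84 (two-sided exact permutation p = 0.1, 0.13 adjusted over the 4 ratios). The groups did not overlap, and the difference was 0.57 without 2-month replicate 1, whose Fcgr2b level rested on 22 counts. With a pseudocount of 1 it was 1.53, and with one of 0.01 it was 0.50.

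The gamma chain stood at 3.61, 1.77 and 1.52 times the summed FPKM of the 3 activating receptors at 2 months and at 1.35, 1.29 and 1.24 times at 18 months. Its log2 ratio fell by 0.63 (two-sided exact permutation p = 0.1, 0.13 adjusted), without overlap between the ages, and without 2-month replicate 1 the difference was −0.33. Against Tyrobp, which encodes DAP12, the other ITAM adaptor of myeloid cells, the gamma chain stood at 2.86, 0.341 and 0.243 times at 2 months and at 0.379, 0.331 and 0.326 times at 18 months. The ages overlapped, and the difference of −0.79 (two-sided exact permutation p = 0.8) rested on young replicate 1 and was 0.24 without it. In that library Fcer1g had 62 counts and an FPKM of 1.25, against 0.436 for Tyrobp. Fcgrt stood at 0.542, 0.130 and 0.490 times the FPKM of its light chain B2m at 2 months and at 0.0237, 0.0197 and 0.0197 times at 18 months. The log2 difference of −3.95 (two-sided exact permutation p = 0.1, 0.13 adjusted) was the largest of the 4 in size, and the ages did not overlap.

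**Figure D4:**
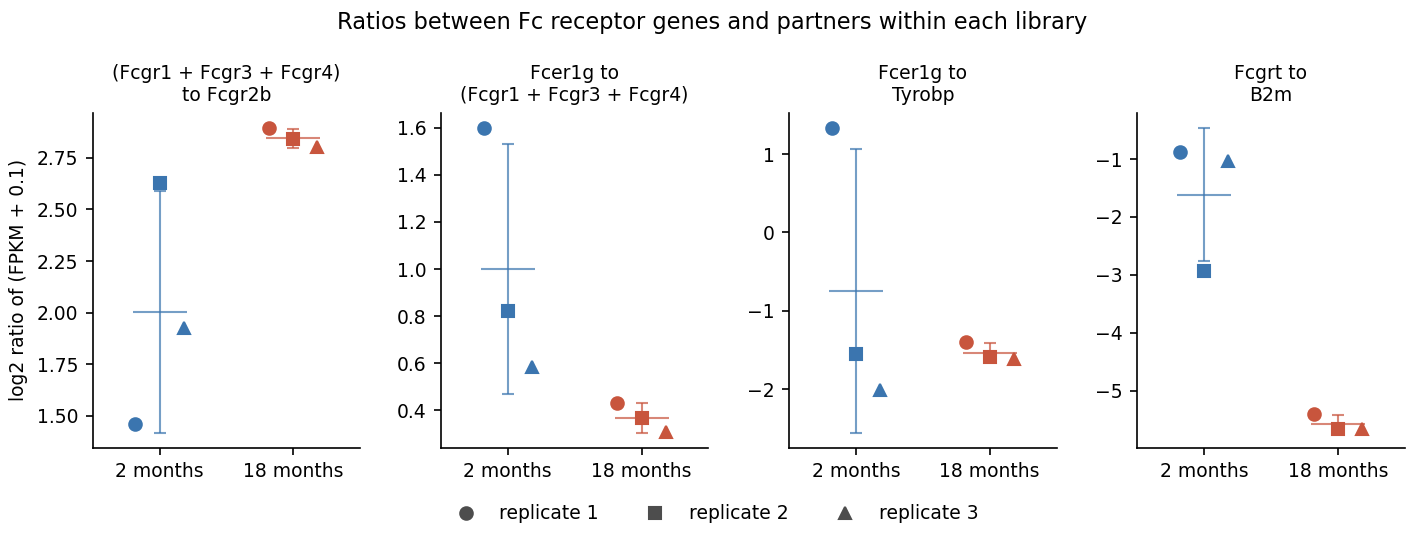
Log2 ratios of FPKM + 0.1 within each library of 2 months (blue) and 18 months (red), with the mean and SD of each age (n = 3), on an axis of its own in each panel. The ages do not overlap for the activating to inhibitory, gamma chain to activating and Fcgrt to B2m ratios, and they overlap for Fcer1g to Tyrobp, where 2-month replicate 1 (circle) stands apart.

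The partners of the receptors were described with 7 lists, of which 56 of 61 genes were tested. Of those, 26 were called higher and 1 lower with all libraries, and the count of called genes ran from 14 without 2-month replicate 3 to 48 without 2-month replicate 2. Without any 18-month library it was 16 or 17. Over all genes tested, 36.3% were called with all libraries, 14.9% higher and 21.3% lower. Without 2-month replicate 2, 9583 of 21489 genes were called, 5007 of them higher, and without 2-month replicate 3, 5640 of 21356. The counts of these lists and of the marker lists are to be read against those shares. The antibody genes themselves provide the ligands. Of 7 tested heavy chain constant genes, 5 were called higher (Ighg2b, Ighg2c, Ighg3, Igha and Ighd), with a list median of 7.18, and 7 of 8 were called without 2-month replicate 2. Ighg2c, which encodes the heavy chain of IgG2c, had an FPKM of 0 in all 3 young libraries and of 421, 86.4 and 90.5 in the aged ones. Ighg2b stood at 306 FPKM in 18-month replicate 1 and at 60.1 and 60.2 in replicates 2 and 3. The aged level of Ighg3 rested mostly on 18-month replicate 1, at 14.1 FPKM against 0.710 and 0.720. Igha, of IgA, had 0.136, 5.30 and 0.304 FPKM at 2 months and 295, 274 and 268 at 18 months. Ighm, of IgM, had 5.23, 112 and 7.40 FPKM at 2 months and 386 to 420 at 18 months, and it was not called (log2 fold change 3.26, adjusted p = 0.069, edgeR). Ighe, which encodes the heavy chain of the IgE bound by Fcer1a, was at 0 in every young library and at most 0.343 FPKM in the aged ones, and it was not tested. Ighg2c and its relatives are similar copies, so the authors' counting may have divided reads between them.

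Other proteins that bind antibodies or resemble Fc receptors were listed beside the receptors. Of 8 such genes tested, with a median of 1.53, Trim21, a cytosolic receptor for antibody on entering viruses, and Fcrl5, a receptor of B lymphocytes, were called higher, at 1.05 and 4.58. Fcmr, which encodes the receptor for IgM, was at 2.60 (adjusted p = 0.23, edgeR), Fcrl1 at 2.68 (0.088), and Fcrlb at 1.89 (0.16). Fcrla, Fcrls and Fcer2a, the low-affinity IgE receptor CD23, had values of 1.17, 0.96 and 0.79 that did not pass. Without 2-month replicate 2, 6 of the 8 were called higher. Fcamr was too low to be tested, and Pigr and Fcgbp were not found under these names among the genes of the deposited data. B2m rose from 122, 393 and 125 FPKM to 1227, 1254 and 1211 FPKM (log2 fold change 2.49, adjusted p = 0.0085, edgeR), whereas Alb, which encodes the albumin that Fcgrt also recycles and which the liver makes, was at 0 in 5 of the 6 libraries.

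Of 6 further receptors that signal through the gamma chain, with a median of 3.95, Clec4e, which encodes Mincle, and Gp6, the collagen receptor of platelets, were called higher, at 5.82 and 5.78. Clec4d was at 4.77 (adjusted p = 0.051, edgeR), Ncr1 at 3.13 (0.14) and Clec4n, which encodes Dectin-2, at 2.27 (0.18). Oscar, a receptor of osteoclasts, had an FPKM of 0.268, 12.9 and 2.40 at 2 months and 4.23, 5.28 and 4.45 at 18 months. It was thus highest in young replicate 2, as the osteoclast markers were, with a log2 fold change of −0.17. Among the ITAM adaptors, Cd247, the T cell receptor zeta chain, and Hcst, which encodes DAP10, an adaptor of the same list that lacks an ITAM, were called higher, at 4.55 and 4.88. Tyrobp had 0.436, 97.9 and 14.6 FPKM at 2 months and between 517 and 570 FPKM at 18 months, without overlap, and did not pass the test (log2 fold change 3.86, adjusted p = 0.085, edgeR), and it was called without 2-month replicate 2, at 6.08.

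Downstream of the receptors lie kinases and adaptors that relay the signal and phosphatases and receptors that oppose it. Of 17 genes of the activating relay, 6 were called higher and 1 lower, with a median of 3.50, and 15 and 1 without 2-month replicate 2. Prkcd, the kinase PKC delta, was called higher at 2.22. Rac2, a GTPase of phagocytes, was at 4.01 (adjusted p = 0.095, edgeR) and the Src family kinase Lyn at 3.55 (0.058), neither of them past the test. The gene called lower was Vav3, a guanine nucleotide exchange factor, at −1.14, which is named because it was the only one. Of 14 genes of the inhibitory relay, 8 were called higher and 0 lower, with a median of 3.03, and 11 without 2-month replicate 2. Lilrb4a, an ITIM receptor of myeloid cells, was called at 4.37 and Dok3, an inhibitory adaptor, at 3.13. Pirb, an ITIM receptor for MHC class I, at 4.39 (adjusted p = 0.054, edgeR), and Ptpn6, which encodes the phosphatase SHP-1, at 3.52 (0.065), were not called.

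**Figure D5:**
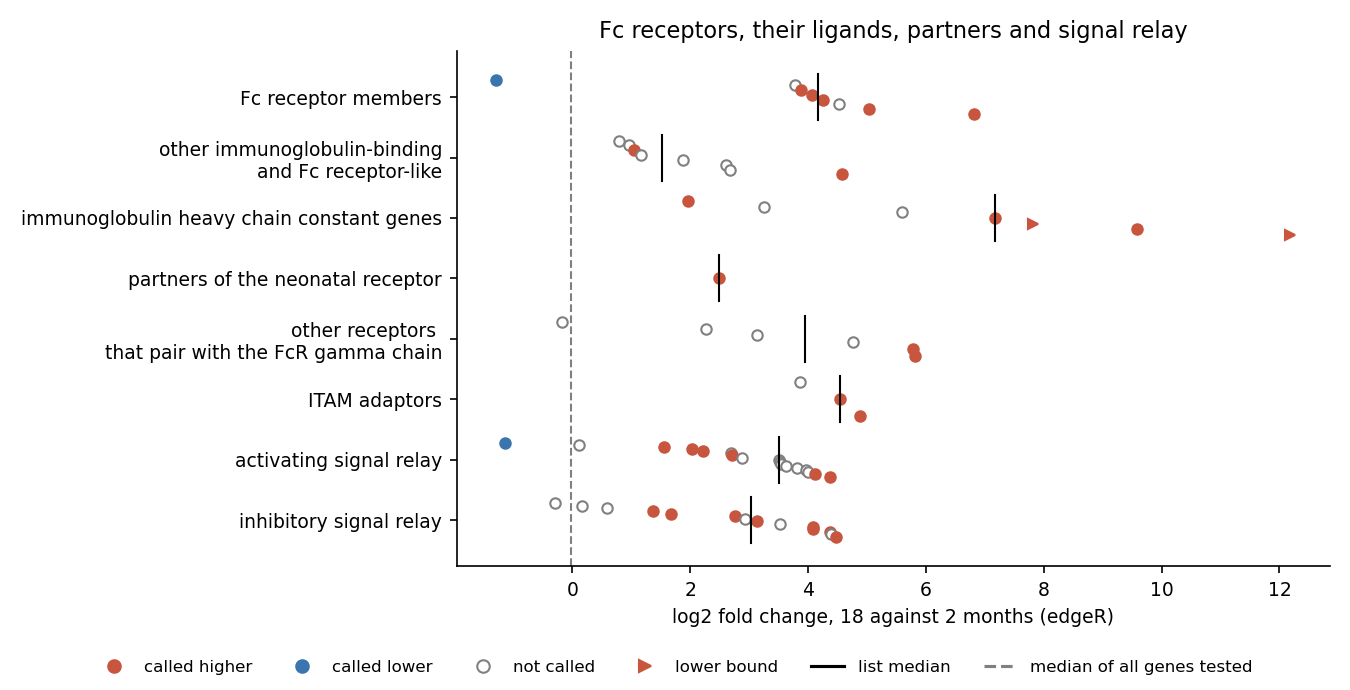
The log2 fold change of each tested gene at 18 against 2 months in edgeR, for the Fc receptors and 7 lists of their ligands, partners and signal relay, with the median of each list (black) and of all genes tested (dashed, −0.02). Arrowheads are lower bounds, of the 18-month mean against 3 counts per library, for Ighg2c and Ighg3, which have no count at 2 months. Blue points are the genes called lower, Fcgrt and Vav3.

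The genes whose profiles were most like those of the receptors were sought among the 13899 genes whose mean FPKM reached 1, by the root mean square distance of centred log2 CPM over the 6 libraries. The points share the libraries, and the separate standing of young replicate 2 enters every distance. For the 3 activating receptors the nearest genes were P2ry13, a receptor for ADP (0.12 from Fcgr1), Muc13, a mucin (0.12 from Fcgr4), and Gm14548 (0.13 from Fcgr3), followed in the last case by H2-Aa, a chain of MHC class II (0.16). Nearest to Fcgr2b were Cd300lb (0.16), Tlr8, a receptor for RNA (0.17), and Xdh, xanthine dehydrogenase (0.20). Fcer1g was closest to Gda, guanine deaminase (0.087), with 0.451, 10.3 and 1.12 FPKM at 2 months and 63.5, 67.9 and 64.5 at 18 months. The nearest genes of the IgE receptor chains differed. Ms4a2 lay closest to Lilrb4a (0.13), and Fcer1a to Serpina3b (0.27), Ly6g6f (0.30) and Igkv8-30 (0.31). The genes nearest to Fcgrt were Mboat2, Dusp22 and Txndc16, all at 0.05. Profiles were centred but not scaled, so distances tend to be smaller for a gene with a small change, such as Fcgrt. They therefore do not rank the members by likeness to their neighbours. Mboat2, an acyltransferase of phospholipids, had 2.65, 2.15 and 2.47 FPKM at 2 months and 1.12, 0.959 and 1.01 at 18 months, which is the same order of libraries in the young group as for Fcgrt.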

How the data were processed

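Articular cartilage of wild-type mice was profiled in 6 libraries, 3 per age, of poly(A)-selected RNA made strand-specific and read from both ends. The authors deposited raw counts per gene and library and FPKM values, scaled by transcript length and fragments of the library. The submitters' processing notes name cutadapt 1.9, HISAT2 2.0.4, UMI-tools, StringTie 1.3.4d, DESeq2 and edgeR without their roles, so the counting program, its strand setting, the treatment of molecular identifiers and the annotation are not given in the sources used here. All columns with values per library were used. Depth was 48171507 to 59085179 counts, and counting error alone is small beside the spread between libraries: between 18-month replicates 2 and 3, the closest pair, the chi-square of a gene had a median of 6.32 times its expectation, so that all libraries were kept as separate samples.

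In R 4.3.3, counts went into edgeR 4.0.16 (TMM, filterByExpr, quasi-likelihood test, Benjamini-Hochberg adjustment over 20397 genes), without a replicate block. A gene was called at an adjusted p below 0.05 and an absolute log2 fold change above 1, the limits of the study. Standard errors came from the log2 fold change over the root of F. Of 33971 genes, 33865 were found by identifier in GENCODE M21 (GRCm38). Sequences came from GENCODE transcripts and RefSeq promoters, which held 8 of the 8 members, and were compared with Biopython 1.88 in Python 3.11.15. Coding sequences were those of the transcript numbered first for each gene. Figures were drawn with matplotlib 3.10.9 and tables handled with the package data.table (1.17.8). The tests of edgeR, limma and DESeq2 were tried on simulated counts with changes that were known, and the permutation test was not. The simulation capped the spread between libraries, so it does not show how the tests behave at a larger spread.

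Alternatives were other scaling, other filters, DESeq2 1.42.0, a replicate block, limma 3.58.1 on log2 FPKM with pseudocounts of 0.01, 0.1 and 1 or rescaled to TPM, and leaving out each library. Summing 18-month replicates 2 and 3 and the counts of KEGG pathways were chosen after seeing the data. Named genes were all members, any gene of the lists of ligands, partners and adaptors, the 4 most abundant genes of each other list, and the 3 genes nearest to each member in profile, with exceptions said in the text. Some genes that this rule names are not reported here. The members and lists were chosen with earlier results of these data known. Marker lists covered chondrocytes, monocytes and macrophages, neutrophils, eosinophils, basophils, mast cells, NK cells, B lymphocytes, plasma cells, megakaryocytes, erythroid cells, endothelium and osteoclasts, with genes of the sex chromosomes as a check.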

Additional observations from a re-analysis of the deposited data

How the results depend on the processing

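Of the 8 Fc receptor genes, 6 were called with all libraries in edgeR. The count of called members was 2 without a filter on low counts, which adds genes to the adjustment, and 2 with 18-month replicates 2 and 3 summed, an alternative chosen after seeing the data, and it ran from 2 to 8 over the fits that left out 1 library. It was 6 with median-of-ratios size factors, total counts alone, a mean FPKM of at least 1 and the replicate block, 7 with DESeq2 and 8 in the 4 limma fits. Fcer1a and Fcgrt were called in all 11 alternatives with every library, and each member kept its direction in all of them and in the fits without 1 library. The log2 fold change of Fcgrt lay between −1.63 and −1.17 over the former, and that of Fcer1a between 4.12 and 8.14. The pseudocounts of limma, gave Fcgr1 values of 2.44 (pseudocount 1) and 6.15 (0.01). Rescaling FPKM to TPM moved the median of all genes to −0.33. Same-numbered libraries of the 2 ages did not clearly deviate together (correlations of 0.08, 0.08 and −0.07), and the numbers were taken to name samples only. With so few libraries per age, these correlations cannot exclude a pairing. With the replicate block 6032 genes were called, against 7401 without it. With DESeq2 9556 were called, and limma on log2(FPKM + 1) called 3041 higher and 2217 lower, against 3047 and 4354 in edgeR. In the 7 partner and relay lists 27 genes were called with all libraries, 47, 41 and 43 in limma with pseudocounts of 0.1, 1 and 0.01, 42 after rescaling to TPM, and 16 with the 2 libraries summed. Leaving out 1 library each gave 14 to 48. The gamma chain to Tyrobp difference of −0.79 became 0.24 without 2-month replicate 1 (range of the fits without 1 library, −1.43 to 0.24). The other 3 ratios kept their direction under every pseudocount, with CPM in place of FPKM and without each library. Except where stated, the cause was not tested. A count of 0 in a library of either age allows 3 counts. Among the 8 members only 2-month replicate 1 had such zeros, so a level of Fcgr1, Fcer1a or Ms4a2 below 0.0621 CPM was not detectable in replicate 1.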

Other observations

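The KEGG terms that the authors list for each gene, read after the other values had been seen, describe the pathway more widely. Of 76 tested genes of Fc gamma receptor-mediated phagocytosis, 21 were called higher and 8 lower at 18 months in edgeR, with a median log2 fold change of 0.56, where the median of all genes tested was −0.02. Without 2-month replicate 2 the counts were 36 and 10. Of 53 tested genes of Fc epsilon RI signalling, 11 were called higher and 2 lower, with a median of 0.54, and 23 and 2 without that library. The shares called are to be read against 14.9% called higher and 21.3% called lower over all genes with all libraries. Without 2-month replicate 2, 5007 (23.3%) of 21489 genes were called higher and 4576 lower.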
